A study of Sus scrofa with 36 samples.

Results

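The genes described here make, take up, store and export cholesterol in the pig adrenal gland. They were chosen by name from a list of 42 names, which stand for 40 genes, and each gene was read from the probe with the highest mean over the 36 arrays. No probe was found for MVD, EBP and STARD5. The only probes of DHCR7 and ABCG1 lie outside the authors' table of normalized values, and they were well above background on 0 and 5 of the 36 arrays. The other 35 genes were measured, and all 35 were well above background on every array and passed the filter on dim probes. They stand among the 45943 probes that were tested.

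Adrenal RNA of each pig was hybridised to a single-colour array of its own, and each of the 6 groups held 6 pigs. The 36 growing pigs were castrated males and were Creole, Large White or a Large White × Creole cross, called F1 in the labels. TN pigs were kept at 24 °C and killed before the temperature rose. HS pigs were killed after 4 or 5 days at 32 °C by the methods and the series' own description, although their labels give 30 °C. All TN pigs were killed before all HS pigs, so that the day of slaughter and the temperature group cannot be told apart. According to the methods the pigs came from litters and were housed in pens of 1 breed that were killed at 1 temperature. Neither pen nor parents are in the labels, so littermates and pen mates were treated as independent. All 7 cortex markers (STAR, CYP11A1, CYP17A1, HSD3B1, CYP21A2, NR5A1 and MC2R) and the 5 of 7 chromaffin markers that had a probe were well above background on all 36 arrays, so both cortex and medulla were in the samples. In such whole tissue, fewer cells of a type and less RNA per cell cannot be told apart.

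Cells build cholesterol from acetyl-CoA through mevalonate, squalene and lanosterol. When sterol in the endoplasmic reticulum is low, SCAP carries the SREBP transcription factors to the Golgi for cleavage, and they switch on the enzymes of the pathway. INSIG proteins hold SCAP back when sterol is high. When sterol is plentiful, the LXR receptors raise export through ABCA1. The adrenal cortex makes its steroids from cholesterol, which it takes from lipoproteins through SCARB1, stores as esters made by SOAT1, or synthesises itself.

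Values below are log2 intensities after quantile normalization, and differences are on the log2 scale. A difference was called when its limma p, with Benjamini-Hochberg adjustment over all 45943 probes, was under 0.05. Levels of different genes were not compared, since probes differ in brightness. On all arrays between 42436 and 48060 probes were well above background, and the arrays lie on 5 slides, scanned on 1 day. For 2 genes whose results turn on the agreement of several probes, the first 30 bases of each 60-base probe are shown as the array file gives them, in lower case, with the probe start that the file states where it states one.

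SOAT1, start 3376, the probe used: gtcatggaataacctccaaataagactgct
SOAT1, start 2195: ggcttagaaattttttcattacactgttga
SOAT1, no start stated: caaaaacctgtgcaaactgcataatcacat
LIPA, start 2199, the probe used: taatacttctgattgcatctctgtgtcagg
LIPA, start 2377: gcagacagtgtaatcttgtgcagacctttt
LIPA, start 1392: gagtcgtggccaaatatgaagccgatgctt
LIPA, start 1140: ttggatgccccacagcaactctatgatgaa

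Between HS and TN pigs 1 of the 35 genes was called, and it was higher in HS, against 0.886% of all probes tested, 0.39% higher and 0.496% lower. That gene was ABCA1, which exports cholesterol to apolipoproteins. At an unadjusted p under 0.05 there were 6 of the 35, 2 of them higher and 4 lower in HS, where 13.4% of all probes reached that level. Differences were negative for 25 of the 35 genes, with a median of -0.05, against 50% of all probes and a median of 0. Within breeds, 17 of the 35 were negative in Creole, 23 in Large White and 23 in cross pigs. Several of these genes varied together from pig to pig, so such counts are not of independent genes.

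**Figure D1:**
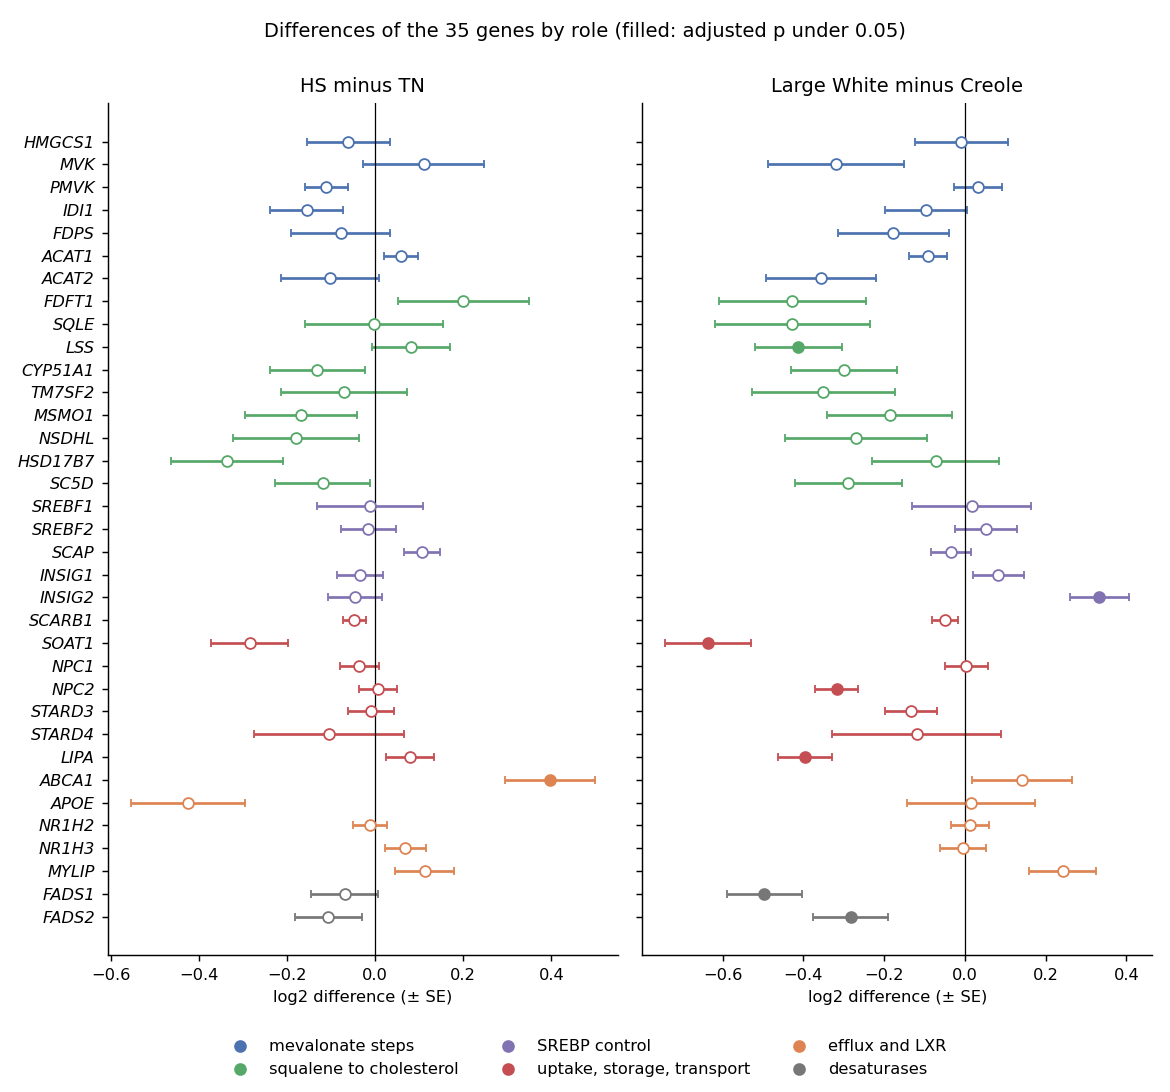
Log2 difference with its standard error for each of the 35 genes, HS minus TN on the left and Large White minus Creole on the right, coloured by role, with filled points for an adjusted p under 0.05. On the left only ABCA1 is filled, at 0.40, and on the right INSIG2 is filled above 0 while SOAT1, FADS1, LSS, LIPA, NPC2 and FADS2 are filled below it.

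In TN pigs the lowest ABCA1 value was 14.21, the median 15.005 and the highest 15.45. In HS pigs the lowest was 14.64, the median 15.32 and the highest 15.58. The groups overlapped, but 6 HS pigs lay above every TN pig and 17 of 18 lay above the TN median. The difference was 0.40 ± 0.10 (SE, 18 pigs against 18), or 1.32-fold, with an adjusted p of 0.0498 in limma. ABCA1 is on chromosome 1 from 246144277 to 246278492 in RefSeq's annotation of Sscrofa11.1, and 1 probe measured it. By group, the mean was 14.89 ± 0.37 in Creole TN, 15.17 ± 0.29 in Creole HS, 15.06 ± 0.20 in Large White TN, 15.29 ± 0.22 in Large White HS, 14.76 ± 0.48 in cross TN and 15.44 ± 0.17 in cross HS (SD, n = 6 each). The difference was 0.29 in Creole, 0.23 in Large White and 0.67 in cross pigs, and a difference in response between the breeds was not shown (unadjusted p = 0.156 for the interaction in limma).

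The ABCA1 call stood at the edge of the threshold. Not adjusted for breed, the difference was positive on all 5 slides, from 0.08 to 0.85. On slide 1 no breed had pigs of both temperatures, so breed and temperature cannot be told apart there. With a fixed slide term the adjusted p was 0.0351 in limma. The difference was 0.36 with an adjusted p of 0.172 without slide 1, 0.48 with 0.0996 without slide 2, 0.39 with 0.176 without slide 3 and 0.26 with 0.331 without slide 4 (limma). With single pigs left out the difference stayed between 0.35 and 0.43. The adjusted p then ran from 0.0246 to 0.0833 in limma, and the call was lost for 25 of the 36 pigs. It was kept without Creole TN pigs 2, 4 or 6, Creole HS pigs 3 or 6, Large White TN pigs 3 or 4, Large White HS pigs 1, 5 or 6, or cross TN pig 6.

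The rest of the export group was not called. APOE, a lipoprotein ligand that cells also release, ranged from 13.05 to 14.90 in TN pigs with a median of 13.58, and from 12.78 to 13.98 in HS pigs with a median of 13.26. In 17 of 18 HS pigs APOE was below the TN mean of their breed. Its difference was -0.42 ± 0.13 with an adjusted p of 0.102 in limma, and its other probe also gave -0.42. The difference was negative in all 3 breeds and was -0.30 without slide 2. Not adjusted for breed, it was negative on all 5 slides, from -0.92 on slide 2 to -0.10 on slide 1. On slide 1 no breed had pigs of both temperatures. Of the LXR receptors, NR1H3 gave 0.07 and NR1H2 -0.01. MYLIP, an LXR target that marks lipoprotein receptors for breakdown, gave 0.11 (adjusted p = 0.492 in limma).

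ABCA1 and APOE are also active in macrophages. Of 6 macrophage markers 5 had a probe (CD163, CD68, CSF1R, CD14 and AIF1), of which 0 were called between HS and TN and 4 were negative. Their summed intensity ran from 8088 to 17940 in TN pigs and from 7572 to 16980 in HS pigs, and their part in the result was not tested. The cortex factor NR5A1 was lower in HS by 0.25 (adjusted p = 0.0254 in limma), the 1 cortex marker of 7 that was called, and all 7 were negative with a median of -0.08. All 5 chromaffin markers were negative (median -0.21), as were all 4 red blood cell markers with a probe (median -0.11), and 0 of either were called. The summed cortex markers ran from 674300 to 879500 in TN and from 633900 to 856800 in HS, and their part in the result was not tested.

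**Figure D2:**
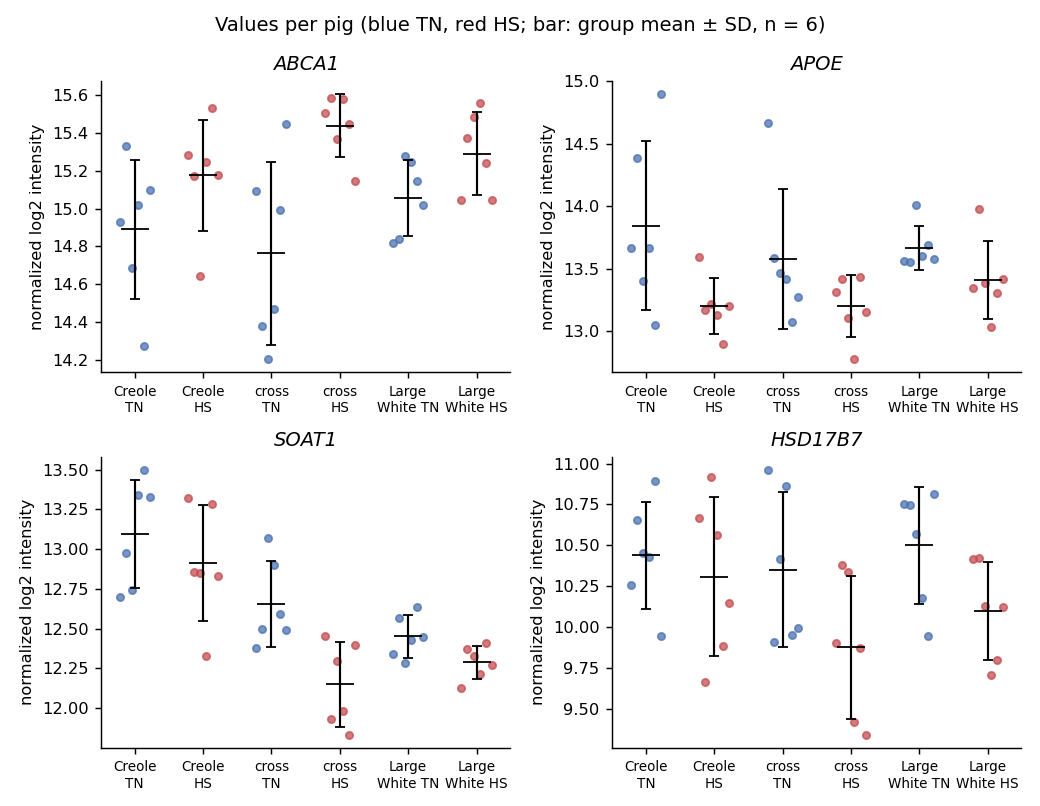
Normalized log2 intensity of ABCA1, APOE, SOAT1 and HSD17B7 in each pig, by breed and temperature group, blue for TN and red for HS, with the group mean and SD (n = 6). The red means lie above the blue ones for ABCA1 and below them for the other genes in all 3 breeds, with overlap between single pigs.

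SOAT1, which esterifies cholesterol for storage, ranged from 12.28 to 13.50 in TN pigs with a median of 12.61, and from 11.83 to 13.32 in HS pigs with a median of 12.35. In 16 of 18 HS pigs it was below the TN mean of their breed. The difference was -0.28 ± 0.09 with an adjusted p of 0.101 in limma, and all 3 probes were negative, at -0.28, -0.27 and -0.19. It was -0.13 without slide 4. Not adjusted for breed, it was negative on 4 of 5 slides. The other was slide 1 at 0.43, where no breed had pigs of both temperatures. The difference was -0.51 in the cross, -0.19 in Creole and -0.16 in Large White pigs. The interaction had an unadjusted p of 0.199 in limma.

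None of the other 6 uptake, storage and transport genes was called between HS and TN. SCARB1, the receptor that takes cholesterol esters from high-density lipoprotein, gave -0.05 with a 95% interval from -0.10 to 0.00. All 5 of its probes were negative and not called, and the 3 dimmer ones gave -0.18, -0.16 and -0.14, with a lowest adjusted p of 0.138 in limma, so the size depended on the probe. LIPA, the lysosomal lipase that frees cholesterol from incoming esters, gave 0.08. NPC1 and NPC2, which pass that cholesterol out of the lysosome, gave -0.04 and 0.01. The carrier proteins STARD3 and STARD4 gave -0.01 and -0.10, and the interval of STARD4 was wide, from -0.44 to 0.23.

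Of the 16 genes listed under synthesis 0 were called between HS and TN. At the probes used 2 had an unadjusted p under 0.05 in limma, namely HSD17B7 and PMVK. HSD17B7, which reduces the C3 ketone of sterols, ranged from 9.91 to 10.96 in TN pigs with a median of 10.44. In HS pigs it ranged from 9.34 to 10.92 with a median of 10.12. It differed by -0.34 ± 0.13 (adjusted p = 0.203 in limma), with both probes negative. PMVK, the kinase after MVK, gave -0.11 (adjusted p = 0.29 in limma), its other probes gave -0.04 and -0.08, and the median over its probes gave -0.05 (0.785). For the other genes listed under the steps before squalene the values were 0.06 for ACAT1 and -0.10 for ACAT2, both thiolases. The rest were -0.06 for HMGCS1, 0.11 for MVK, -0.16 for IDI1 and -0.08 for FDPS. The later enzymes gave 0.20 for FDFT1, -0.00 for SQLE, 0.08 for LSS, -0.13 for CYP51A1, -0.07 for TM7SF2, -0.17 for MSMO1, -0.18 for NSDHL and -0.12 for SC5D. Among their other probes, 3 of MSMO1 (-0.27, -0.25 and -0.24), 2 of NSDHL (both -0.20) and 1 of CYP51A1 (-0.23) had an unadjusted p under 0.05. The dimmer probe of ACAT1 gave 0.08, in the other direction, also with an unadjusted p under 0.05. None of these probes was called. At the probes used, 7 of the 9 enzymes from squalene to cholesterol were negative, with a median of -0.12.

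None of the 5 genes of SREBP control was called. SCAP gave 0.11 ± 0.04 (adjusted p = 0.204 in limma), and 0.06 (0.58) with centring on the median. Not adjusted for breed, it was positive on all 5 slides. On slide 1 no breed had pigs of both temperatures. SREBF1, SREBF2, INSIG1 and INSIG2 lay between -0.05 and -0.01 at the probes used, whereas the other probe of INSIG1 gave 0.17 and another of SREBF1 gave 0.13, neither called. The desaturases FADS1 and FADS2, SREBP targets that make polyunsaturated fatty acids, gave -0.07 and -0.11. Of 45 other genes of lipid and sterol handling that had a probe, 0 were called between HS and TN in limma, against 0.886% of all probes.

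Within single breeds, with 6 pigs against 6, 0 of the 35 genes were called in Creole, Large White or cross pigs by limma, where 0%, 0.0109% and 0% of all probes were called. At an unadjusted p under 0.05 there were 2, 2 and 8 of the 35, against 4.8%, 6.27% and 12.2% of all probes. The 9 enzymes from squalene to cholesterol had a median difference of 0.07 in Creole, -0.04 in Large White and -0.26 in cross pigs. The interaction of breed and temperature gave 0 calls among the 35 genes and 0% of all probes in limma, and 1 of the 35 had an unadjusted p under 0.05. Leaving out slide 5, or cross TN pig 6, gave 1 call in the cross, and the gene was ABCA1.

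Between Large White and Creole pigs 7 of the 35 were called, 6 lower and 1 higher in Large White, against 11.3% of all probes, 5.38% lower and 5.89% higher. The 6 that were lower were SOAT1, NPC2 and LIPA, which store cholesterol or handle it in the lysosome, the enzyme LSS, and the desaturases FADS1 and FADS2. The 1 that was higher was INSIG2, the sterol sensor. The F test over the 3 breeds called the same number, 7 of 35, against 10.4% of all probes. The difference was negative for 25 of the 35 genes, with a median of -0.12, where 50% of all probes were negative. Here too the genes are not independent of each other.

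SOAT1 ranged from 12.33 to 13.50 in Creole pigs with a median of 12.92, and from 12.13 to 12.64 in Large White pigs with a median of 12.36. All 12 Large White pigs were below the Creole median and 5 were below every Creole pig. The difference was -0.64 ± 0.11 (SE, 12 pigs against 12), or 1.55-fold lower in Large White, with an adjusted p of 9.67e-05 in limma. All 3 probes printed above were called, at -0.64, -0.57 and -0.33. The group means were 13.10 ± 0.34 in Creole TN, 12.91 ± 0.36 in Creole HS, 12.45 ± 0.13 in Large White TN, 12.29 ± 0.10 in Large White HS, 12.66 ± 0.27 in cross TN and 12.15 ± 0.26 in cross HS (SD, n = 6 each). Not adjusted for temperature, the difference was negative on all 5 slides, from -0.87 to -0.49. The -0.87 is from slide 1, where the Creole pig was HS and the Large White pigs were TN. The difference was called within TN (-0.65, adjusted p = 0.0096) and within HS (-0.62, adjusted p = 0.0157) by limma. SOAT1 is on chromosome 9 from 121045211 to 121112393.

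NPC2 ranged from 15.48 to 15.98 in Creole pigs with a median of 15.77, and from 15.24 to 15.64 in Large White pigs with a median of 15.44. Of the 12 Large White pigs, 9 were below every Creole pig. The difference was -0.32 ± 0.05 with an adjusted p of 7.36e-05 in limma, and its other probes gave -0.35 and -0.34, both called. Its group means were 15.83 ± 0.11 in Creole TN, 15.67 ± 0.15 in Creole HS, 15.36 ± 0.09 in Large White TN, 15.50 ± 0.11 in Large White HS, 15.54 ± 0.09 in cross TN and 15.58 ± 0.08 in cross HS (SD, n = 6 each). The breed difference was -0.47 in TN (adjusted p = 8.04e-05) and -0.17 in HS (adjusted p = 0.183) by limma. The interaction itself had an unadjusted p of 0.00963 in limma, the lowest of the 35 genes at the probes used. Its adjusted p was 0.982, so a change of the breed difference with temperature was not shown. NPC2 is on chromosome 7 from 97730532 to 97740087.

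LIPA ranged from 14.99 to 15.41 in Creole pigs with a median of 15.22, and from 14.57 to 15.28 in Large White pigs with a median of 14.70. Of the 12 Large White pigs, 11 were below every Creole pig and the other one was Large White HS pig 1 at 15.28. The difference was -0.40 ± 0.07 with an adjusted p of 1.02e-04 in limma. The 4 probes did not agree. Those that start at 2377 and 1140 gave -0.34 and -0.21 and were called, whereas the probe that starts at 1392 gave 0.12 (adjusted p = 0.295 in limma). The median over the probes of the gene was -0.15, with an adjusted p of 0.0793. LIPA averaged 15.17 ± 0.14 in Creole TN, 15.25 ± 0.12 in Creole HS, 14.79 ± 0.17 in Large White TN, 14.83 ± 0.25 in Large White HS, 14.997 ± 0.15 in cross TN and 15.13 ± 0.14 in cross HS (SD, n = 6 each). LIPA is on chromosome 14 from 101131372 to 101254739.

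**Figure D3:**
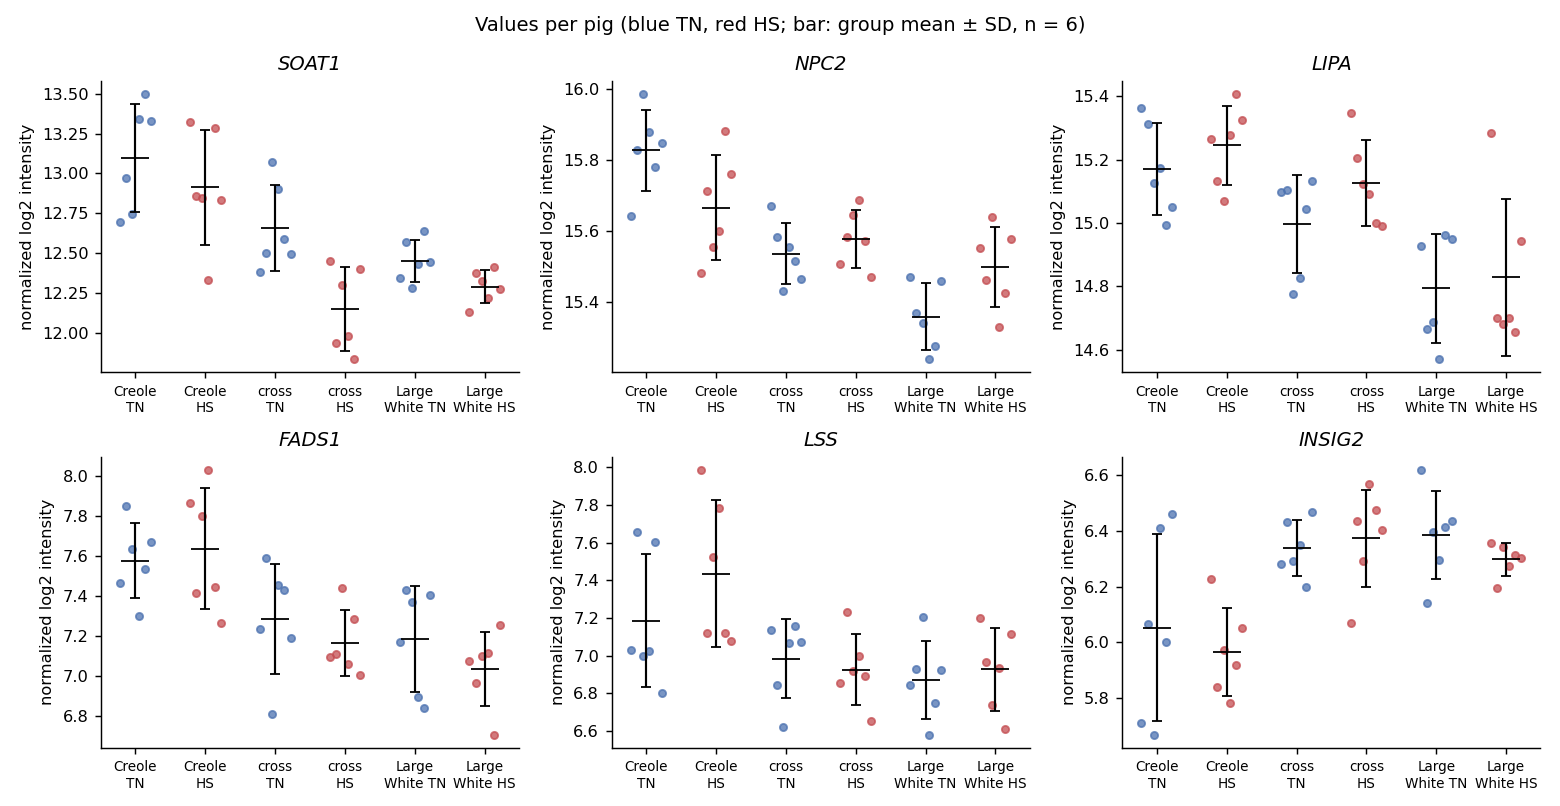
Normalized log2 intensity of SOAT1, NPC2, LIPA, FADS1, LSS and INSIG2 in each pig, by breed and temperature group, blue for TN and red for HS, with the group mean and SD (n = 6). The Large White groups lie below the Creole groups for the first 5 genes and above them for INSIG2, and the Large White HS pig at 15.28 stands among the Creole pigs for LIPA.

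FADS1 ranged from 7.27 to 8.03 in Creole pigs with a median of 7.59, and from 6.71 to 7.43 in Large White pigs with a median of 7.11. Of the 12 Large White pigs, 9 were below every Creole pig. The difference was -0.50 ± 0.09 with an adjusted p of 3.78e-04 in limma. Its other, dimmer probe gave 0.01 (adjusted p = 0.935), so the call rests on 1 of 2 probes, and the median over both gave -0.24 (adjusted p = 0.0023). FADS1 averaged 7.58 ± 0.19 in Creole TN, 7.64 ± 0.30 in Creole HS, 7.19 ± 0.26 in Large White TN, 7.04 ± 0.19 in Large White HS, 7.29 ± 0.28 in cross TN and 7.17 ± 0.16 in cross HS (SD, n = 6 each).

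FADS2, next to FADS1 on chromosome 2, ranged from 9.16 to 10.098 in Creole pigs with a median of 9.44, and from 8.89 to 9.60 in Large White pigs with a median of 9.27. The groups overlapped more than for FADS1, with 5 of 12 Large White pigs below every Creole pig. The difference was -0.28 ± 0.09 with an adjusted p of 0.0416 in limma, and its second probe gave -0.32, which was also called. The call was lost without slide 1 (-0.26, adjusted p = 0.101), slide 2 (-0.33, 0.0675), slide 3 (-0.17, 0.374) or slide 5 (-0.30, 0.0944), with centring on the median (-0.27, 0.0581) and with no filter on dim probes (-0.28, 0.0516). It was also lost, with an adjusted p of at most 0.0876 in limma, without any 1 of 9 pigs, namely Large White TN pigs 1 and 4, Large White HS pigs 1, 2 and 3, Creole TN pigs 2 and 3, and Creole HS pigs 4 and 6. FADS2 averaged 9.53 ± 0.31 in Creole TN, 9.45 ± 0.22 in Creole HS, 9.26 ± 0.27 in Large White TN, 9.16 ± 0.18 in Large White HS, 9.25 ± 0.26 in cross TN and 9.11 ± 0.16 in cross HS (SD, n = 6 each).

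INSIG2 ranged from 5.67 to 6.46 in Creole pigs with a median of 5.98, and from 6.14 to 6.62 in Large White pigs with a median of 6.33. All 12 Large White pigs were above the Creole median, and 1 was above every Creole pig. The difference was 0.33 ± 0.07 with an adjusted p of 0.00233 in limma. It rests on 1 dim probe, since the other probe was well above background on only 12 of 36 arrays and was not tested. Not adjusted for temperature, the difference was positive on all 5 slides, from 0.16 to 0.51. On slide 1 the Creole pig was HS and the Large White pigs were TN. Without slide 2 the difference was 0.28 with an adjusted p of 0.0511. It was 0.61 with processed signals scaled to their 75th percentile, which changes both background and scaling, and 0.25 with normexp. INSIG2 averaged 6.05 ± 0.34 in Creole TN, 5.96 ± 0.16 in Creole HS, 6.38 ± 0.16 in Large White TN, 6.30 ± 0.06 in Large White HS, 6.34 ± 0.10 in cross TN and 6.37 ± 0.17 in cross HS (SD, n = 6 each). The cross groups thus lay with Large White and above Creole. INSIG1 gave 0.08 between Large White and Creole, SREBF1 0.02, SREBF2 0.05 and SCAP -0.03, and none of these 4 was called. The other INSIG1 probe gave -0.28 (adjusted p = 0.558 in limma), so the probes of INSIG1 differed in sign.

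LSS, which closes squalene epoxide into lanosterol, was the 1 called gene among the 9 enzymes from squalene to cholesterol. It ranged from 6.80 to 7.99 in Creole pigs with a median of 7.12, and from 6.58 to 7.20 in Large White pigs with a median of 6.93. Of the 12 Large White pigs, 4 were below every Creole pig. The difference was -0.41 ± 0.11 with an adjusted p of 0.0101 in limma, and it was -0.41 without slide 3 (adjusted p = 0.0707) and -0.29 without slide 4 (adjusted p = 0.158). LSS averaged 7.19 ± 0.36 in Creole TN, 7.44 ± 0.39 in Creole HS, 6.87 ± 0.21 in Large White TN, 6.93 ± 0.22 in Large White HS, 6.98 ± 0.21 in cross TN and 6.92 ± 0.19 in cross HS (SD, n = 6 each).

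The 8 other enzymes of this stretch were negative and not called at the probes used. FDFT1, which makes squalene, gave -0.43 ± 0.18 (adjusted p = 0.133 in limma), with group means of 15.003 ± 0.42 in Creole TN, 15.34 ± 0.45 in Creole HS, 14.66 ± 0.65 in Large White TN, 14.83 ± 0.36 in Large White HS, 14.90 ± 0.46 in cross TN and 14.996 ± 0.49 in cross HS (SD, n = 6 each). SQLE, which oxidises squalene, gave -0.43 ± 0.19 (adjusted p = 0.157) at its brightest probe. The next probe gave -0.41 and was not called, and the 2 dimmest gave -0.63 and -0.44 and were called. The values were -0.30 for CYP51A1, -0.35 for TM7SF2, -0.19 for MSMO1, -0.27 for NSDHL, -0.07 for HSD17B7 and -0.29 for SC5D.

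The median over the 9 enzymes was -0.30, and it depended on slide 4. Without that slide it was -0.12 with 7 of 9 enzymes negative, whereas without any other slide it lay between -0.41 and -0.27 with 9 of 9 negative. On slide 4 alone, which held 3 Large White and 2 Creole pigs, SQLE and FDFT1 both differed by -1.51. On slide 5 they differed by 0.12 and 0.10.

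**Figure D4:**
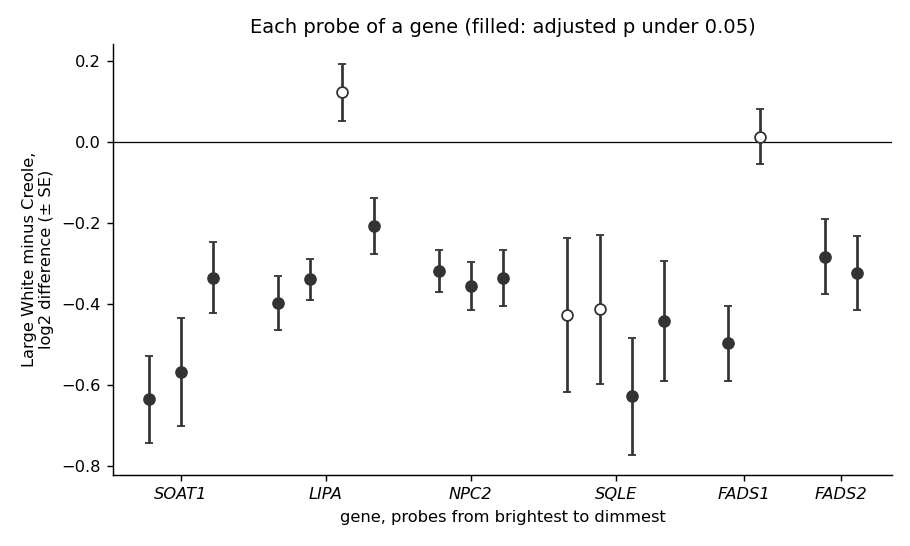
Log2 difference of Large White minus Creole with its standard error for every tested probe of 6 genes, ordered within a gene from the brightest to the dimmest probe, with filled points for an adjusted p under 0.05. All probes of SOAT1, NPC2 and FADS2 are filled below 0, while 1 probe of LIPA at 0.12 and 1 of FADS1 at 0.01 are open.

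Of the 7 genes listed under the steps before squalene 0 were called between Large White and Creole at the probes used, and 6 were negative. ACAT2 gave -0.36 ± 0.14 (adjusted p = 0.086 in limma). It was -0.21 (0.476) without slide 4, and it was called with a fixed slide term (-0.39, 0.0484) and without slide 5 (-0.50, 0.0318). ACAT2 had group means of 10.58 ± 0.24 in Creole TN, 10.68 ± 0.53 in Creole HS, 10.39 ± 0.28 in Large White TN, 10.15 ± 0.28 in Large White HS, 10.38 ± 0.24 in cross TN and 10.22 ± 0.42 in cross HS (SD, n = 6 each). MVK gave -0.32, FDPS -0.18, IDI1 -0.10, ACAT1 -0.09, HMGCS1 -0.01 and PMVK 0.03. All 4 probes of FDPS were negative, and the dimmest gave -0.29 and was called (adjusted p = 0.0324 in limma). In uptake and transport, SCARB1 gave -0.05, STARD3 -0.13, STARD4 -0.12 and NPC1 0.00. The dimmer probe of STARD3 gave -0.29 and was called (adjusted p = 0.00967 in limma).

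In the export group, MYLIP was just outside the threshold at 0.24 ± 0.08 (adjusted p = 0.0502 in limma). It was called in 7 of 16 alternatives, with the lowest adjusted p of 0.0328 under array weights, and with 10 of the 36 pigs left out singly, and it was 0.15 (0.386) without slide 3. It ranged from 9.19 to 9.56 in Creole pigs and from 9.31 to 9.998 in Large White pigs, 8 of 12 of which were above every Creole pig. MYLIP averaged 9.37 ± 0.18 in Creole TN, 9.45 ± 0.08 in Creole HS, 9.63 ± 0.27 in Large White TN, 9.67 ± 0.27 in Large White HS, 9.37 ± 0.13 in cross TN and 9.60 ± 0.24 in cross HS (SD, n = 6 each). ABCA1 gave 0.14, APOE 0.02, NR1H2 0.01 and NR1H3 -0.01 between these breeds.

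Within each temperature, with 6 pigs against 6, 3 of the 35 genes were called in TN (SOAT1, NPC2 and LIPA) against 3.48% of all probes, 2.02% higher and 1.46% lower. In HS 3 were called (SOAT1, LIPA and FADS1) against 2.8% of all probes, 1.37% higher and 1.43% lower. All 6 of these differences were lower in Large White. Most of these calls depended on a slide. Within TN, NPC2 was called under every alternative run, while SOAT1 was lost without slide 3 or 5 and LIPA without slide 1, 2 or 3 and with signals scaled to their 75th percentile. LIPA in TN was also lost without Large White TN pig 2, 3 or 4 or Creole TN pig 1 or 2. Within HS, SOAT1 was lost without slide 1, 2, 3 or 5, LIPA without slide 3, 4 or 5 and FADS1 without slide 3 or 4. By the median over the probes of a gene NPC2 alone was called in TN and FADS1 alone in HS.

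Other genes of lipid and sterol handling were read in the same way. Of 49 listed, 45 had a probe and 6 were called between Large White and Creole in limma, 5 lower and 1 higher in Large White, a share near the 11.3% of all probes. The 5 with the lowest adjusted p were STAR, which brings cholesterol into the mitochondrion, at -0.34, VLDLR, a lipoprotein receptor, at 0.33, the oxysterol enzymes CYP27A1 at -0.50 and CYP7B1 at -0.29, and the receptor LRP1 at -0.24. The sixth was the malic enzyme ME1 at -0.30.

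Markers of other cells also differed between these breeds. Of the 6 adipocyte markers, ADIPOQ (-1.62), FABP4 (-1.33), PLIN1 (-0.90) and CIDEC (-0.59) were lower and LPL (0.91) higher in Large White in limma, and LEP (0.07) was not called. Their summed intensity ran from 3487 to 5426 in Large White and from 3707 to 9289 in Creole pigs. The chromaffin markers CHGB (0.53), PNMT (0.38) and CHGA (0.16) were higher in Large White, 3 of the 5 with a probe, and the 5 summed to between 523700 and 760800 in Large White and between 502000 and 664500 in Creole pigs. Of the 7 cortex markers, HSD3B1 (-0.78) and STAR were lower in Large White. The list was mixed, with 3 positive, 4 negative and a median of -0.02, and it summed to between 633900 and 776300 in Large White and between 756000 and 879500 in Creole pigs. The macrophage marker CSF1R (-0.29) was lower, 1 of 5, while the other 4 were positive and not called (median of the list 0.07). The endothelial marker KDR (0.68) was higher, 1 of 5, and the list had 2 positive and 3 negative markers (median -0.05). The 5 macrophage markers summed to between 8669 and 17940 in Large White and between 8088 and 17420 in Creole pigs. The part of all these markers in the breed differences of the 35 genes was not tested.

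The cross was set against the mean of its parents. Of the 35 genes 0 were called in limma, against 0.409% of all probes, and 4 had an unadjusted p under 0.05, against 11% of all probes. IDI1, which isomerises the isoprene unit, gave -0.27 (adjusted p = 0.177), SOAT1 -0.28 (0.179), INSIG2 0.18 (0.231) and FADS2 -0.17 (0.428) in limma. IDI1 had group means of 7.23 ± 0.20 in Creole TN, 7.20 ± 0.29 in Creole HS, 7.17 ± 0.21 in Large White TN, 7.08 ± 0.24 in Large White HS, 7.07 ± 0.16 in cross TN and 6.72 ± 0.38 in cross HS (SD, n = 6 each). All 9 enzymes from squalene to cholesterol were below the mean of the parents, with a median of -0.17, from -0.25 for MSMO1 to -0.01 for FDFT1.

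None of the other genes of lowest adjusted p in this contrast had an unadjusted p under 0.05. MSMO1, a sterol demethylase, had group means of 15.07 ± 0.33 in Creole TN, 15.06 ± 0.50 in Creole HS, 15.02 ± 0.45 in Large White TN, 14.73 ± 0.36 in Large White HS, 14.82 ± 0.30 in cross TN and 14.61 ± 0.46 in cross HS (SD, n = 6 each). HSD17B7 had 10.44 ± 0.33 in Creole TN, 10.31 ± 0.49 in Creole HS, 10.50 ± 0.36 in Large White TN, 10.098 ± 0.30 in Large White HS, 10.35 ± 0.47 in cross TN and 9.88 ± 0.44 in cross HS. INSIG1 averaged 11.28 ± 0.16 in Creole TN, 11.22 ± 0.27 in Creole HS, 11.34 ± 0.08 in Large White TN, 11.32 ± 0.14 in Large White HS, 11.39 ± 0.13 in cross TN and 11.37 ± 0.10 in cross HS. HMGCS1, the enzyme before mevalonate is made, averaged 6.58 ± 0.23 in Creole TN, 6.71 ± 0.32 in Creole HS, 6.80 ± 0.34 in Large White TN, 6.49 ± 0.15 in Large White HS, 6.49 ± 0.19 in cross TN and 6.49 ± 0.40 in cross HS. FADS1 gave -0.13 and LSS -0.15 against the parents.

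Within groups, several of these genes varied together from pig to pig. Deviations from the 6 group means were compared over 36 pigs for 7 pairs, with a two-sided permutation test within groups and Benjamini-Hochberg adjustment over the 7. HMGCS1 correlated with STARD4 (r = 0.808, rho = 0.853), with SQLE (r = 0.784, rho = 0.771) and with CYP51A1 (r = 0.715, rho = 0.729). The permutation p of the first 2 pairs was 1e-05 for both r and rho, the smallest that the permutations can give, with an adjusted p of 3.5e-05, and for CYP51A1 it was 2e-05 with an adjusted p of 4.67e-05. HMGCS1 also correlated with SREBF2, the SREBP gene that mainly drives cholesterol synthesis (r = 0.544, permutation p = 0.00411, adjusted 0.00719, and rho = 0.531, p = 0.00371, adjusted 0.00649). Without the 2 pigs farthest from the median of HMGCS1, r was 0.789 with STARD4, 0.746 with SQLE, 0.692 with CYP51A1 and 0.553 with SREBF2. With the slide also removed it was 0.797, 0.754, 0.766 and 0.549. Within the 4 slides of 8 arrays it ran from 0.767 to 0.929 for STARD4, from 0.742 to 0.907 for SQLE, from 0.684 to 0.827 for CYP51A1 and from 0.334 to 0.895 for SREBF2.

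**Figure D5:**
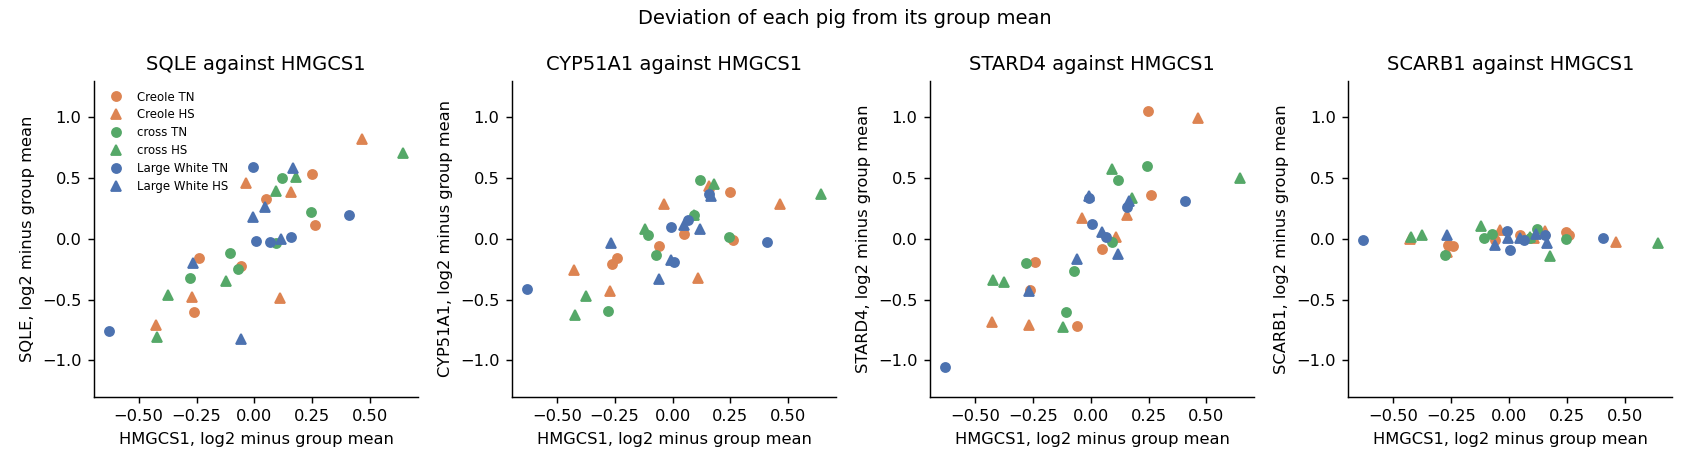
Deviation of each of the 36 pigs from its group mean, on the log2 scale, for SQLE, CYP51A1, STARD4 and SCARB1 against HMGCS1, coloured by breed with circles for TN and triangles for HS. The first 3 rise with HMGCS1 (r = 0.784, 0.715 and 0.808), while SCARB1 at the probe used varies little and shows no such rise (r = 0.0926).

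HMGCS1 was not shown to follow SCARB1 (r = 0.0926, permutation p = 0.652, adjusted 0.76, and rho = 0.0988, p = 0.604, adjusted 0.634). Only the brightest SCARB1 probe was used, with a mean of 18.70 and group SDs up to 0.08. Dimmer SCARB1 probes gave larger differences between HS and TN and were not set against HMGCS1. The result for INSIG1 depended on its probe. The brighter probe gave r = 0.0391 (permutation p = 0.841, adjusted 0.841) and rho = -0.0891 (p = 0.634, adjusted 0.634). The dimmer one gave r = 0.649 (permutation p = 3.9e-04, adjusted 6.82e-04) and rho = 0.575 (p = 0.00101, adjusted 0.00177). ABCA1 and MYLIP, both LXR targets, gave r = 0.147 (permutation p = 0.345, adjusted 0.484) and rho = 0.167 (p = 0.343, adjusted 0.48). Without the 2 pigs farthest from the median of the first gene of the pair, r was 0.156 for SCARB1, 0.182 for the brighter probe of INSIG1 and 0.126 for ABCA1 with MYLIP. Within the 4 slides of 8 arrays r ran from -0.206 to 0.471 for SCARB1, from -0.116 to 0.538 for the brighter INSIG1 probe and from 0.015 to 0.488 for ABCA1 with MYLIP.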

How the data were processed

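The authors labelled adrenal RNA with Cy3, hybridised it to porcine Agilent arrays and extracted spot intensities with Agilent Feature Extraction 10.10.1.1 per the labels. The deposited scanner files hold median intensity per spot, not normalized between arrays, and the authors' deposited table holds quantile-normalized log2 values of 45348 probes. It had 0 columns of other samples and was used as an alternative and for choosing the probe of each gene.

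Control and outlier spots were removed, median intensities were quantile normalized, spots of a probe averaged and log2 taken. The median absolute difference from the deposited table was 0.007. A probe was kept when well above background on at least 9 of 18 TN or HS arrays, and a missing spot was left out of the fit (89 of 45943 probes). Groups were taken from the labels. Gene names were matched without regard to case, and coordinates are from RefSeq on Sscrofa11.1, the build the methods name. Temperature and breed entered 1 linear model per probe (lmFit and eBayes of limma 3.58.1, under R 4.3.3), and p-values were adjusted over all probes by Benjamini-Hochberg, at 0.05. Pen, slaughter day and parents, random effects in the methods, were not used. The number of arrays limits the precision, and p-values measure the spread between these pigs. Pigs that shared a litter or a pen were treated as independent. The p-values can therefore be too small for a difference between breeds or temperatures.

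The script was tested on simulated data. The genes, lists and tests were chosen with earlier results of these data known. Genes called in any contrast are named with their values, groups are given in full for those called by temperature and for the 10 of lowest adjusted p in each breed contrast, and all others are named with a difference. Alternatives were the deposited table, normexp (offset 50), scaling of processed signals to their 75th percentile, centring on the median, other filters on dim probes, slide blocks, omission of single slides or pigs, array weights, no breed term, and other choices of probe. Of 8 planned pairs for correlation 1 was left out because ABCG1 was not measured. The other INSIG1 probe, SQLE in place of HMGCS1, and exact-case gene names were added after seeing the data.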

Additional observations from a re-analysis of the deposited data

Results flagged for a closer look

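In each group of 6 pigs the highest or lowest value was compared with its neighbour, and 9 of 210 tests of a gene in a group stood apart by Dixon's test at the 95% level, where chance flags about 1 in 20. APOE was 14.67 in cross TN pig 1, against 13.07 to 13.59 in the other 5, and 14.01 in Large White TN pig 3, against 13.55 to 13.69. Large White HS pig 5 was lowest for MSMO1 at 14.05, against 14.72 to 15.03, and for NSDHL at 10.38, against 10.91 to 11.16. Large White TN pig 5 was lowest for STARD3 at 10.36, against 10.65 to 10.78, and for STARD4 at 8.05, against 9.12 to 9.44. STARD3 was also lowest in Creole TN pig 6 at 10.62, against 10.84 to 10.90. NPC1 was 13.88 in Creole TN pig 3, against 14.23 to 14.31, and NR1H3 was 12.89 in cross TN pig 3, against 13.13 to 13.23.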

How the results depend on the processing

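None of the 14 genes tested singly under the alternatives changed direction. The count of genes called between HS and TN, 1 in the report, was 0 with processed signals scaled to their 75th percentile, centring on the median, no filter on dim probes, without slide 1, 2, 3 or 4, with array weights or with no breed term, and between 0 and 1 with single pigs left out. Between Large White and Creole it was 5 to 9 under all alternatives and 6 to 8 without single pigs, and by the breed F test 5 to 8 and 6 to 8. In that contrast over both temperatures SOAT1 and NPC2 kept their calls in all 16 alternatives for single genes and without any pig. Within TN, the 3 called between Large White and Creole became 1 without slide 3, by the median over the probes of a gene, or when most probes of a gene had to be called, and 2 to 4 without single pigs. Within HS the 3 became 0 without slide 3, 1 without slide 4, 1 by the median over probes and 0 when most had to be called, and 3 to 4 without single pigs. Within the cross, HS minus TN gave 1 in place of 0 without slide 5, and 0 to 1 without single pigs. Within Creole and Large White pigs, for the interaction and for the cross against its parents, the count was 0 throughout (0 to 0 without single pigs). The correlation of HMGCS1 with INSIG1 became 0.649 at the other INSIG1 probe. With SQLE in place of HMGCS1, r was 0.828 with CYP51A1 and 0.812 with STARD4. The causes were not tested. No paired analysis was possible because the labels number no replicates across groups and name no litters or pens. Dim probes such as those of LSS, INSIG2 and HMGCS1 limit the size of a difference that can be seen.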
